A study of Mus musculus with 6 samples.

Results

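The genes described here encode the ligands, receptors, intracellular transducers and secreted antagonists of the TGF-beta and BMP pathways, together with the Id genes, which are classic targets of BMP signals. The list holds 44 genes, which were chosen for their place in these pathways with earlier results of these data known. Setting Chrdl1 beside the other antagonists was also planned with these results known, so that comparison is a description. Of the 44 genes, 43 were measured among the 22180 genes that have a probe set of their own on the arrays. Gdf15 has no such probe set and is not analysed here. Each of the 43 genes has a single probe set that names it alone, so no second probe set could be set beside it. The arrays were run on kidney RNA of 3 db/db mice and 3 db/m mice, all male, aged 22 weeks and on the C57BL/KsJ background, with 1 Affymetrix array for each mouse. The db/db mice are homozygous for a mutation of the leptin receptor, which makes them obese and diabetic. The db/m mice were their non-diabetic littermates, which by the usual meaning of the name carry the db mutation on a single chromosome and the misty coat colour allele on the other. The mutation acts in the whole animal, so these groups do not separate a kidney effect from an effect of obesity, lipids or glucose, and the db/m mice are not free of the db allele.

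TGF-beta and BMP ligands are secreted dimers that bind pairs of type I and type II serine/threonine kinase receptors. TGF-betas and activins signal mostly through SMAD2 and SMAD3, and BMPs through SMAD1, SMAD5 and SMAD9, with SMAD4 as the shared partner. TGF-beta1 is known as a driver of matrix deposition in diabetic kidney, whereas BMP7, made by the tubule and the podocyte, is known as a factor that maintains the epithelium. Much of the control lies outside the cell, where chordin family proteins, noggin, gremlins, follistatins and USAG-1 bind ligands and limit their reach. A signal here is a value on the log2 scale, so that a difference of 1 is a change by a factor of 2, and signals of different genes cannot be ranked against each other since each probe set binds its target differently.

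The table holds signals from 0.42 to 12.76 with array medians between 3.36 and 3.43, and arrays give no read depth, so the number of mice limits the precision. Slc34a1, a phosphate transporter that marks the proximal tubule, had signals of 12.12 to 12.19 in db/db mice and 12.12 to 12.22 in db/m mice, and 4 of 5 adrenal cortex markers lay below the median probe-set signal of 3.37. By the labels the tissue is kidney, and by the methods it is renal cortex. The inner medulla markers Slc14a2, Aqp4 and Fxyd4 had means above 3.37 in both groups and log2 differences of 0.76, -0.50 and -0.07. None passed the adjusted test. Slc14a2 had 6.14, 5.16 and 6.73 in db/db mice and 5.73, 5.47 and 4.56 in db/m mice. The part of medulla content in the values of single mice was not tested. Some marker lists differed between the groups. All 6 macrophage and all 5 measured T cell markers had negative log2 differences, db/db minus db/m, with Cd3e as the 1 that passed the adjusted test (limma adjusted p = 0.0484, and 0.0889 to 0.187 with each array left out, so that leaving out any 1 array ended the call). All 4 measured adipocyte markers had negative differences as well, from -0.92 to -0.03. In each, db/m replicate 2 had the highest signal of the db/m mice. Without this mouse the differences were -0.09 for Retn, -0.09 for Plin1, -0.15 for Adipoq and 0.24 for Lep. The means of the T cell markers Cd3d and Cd4 and of Adipoq lay below 3.37 in both groups. Those of Plin1 and Retn did so in db/db mice. All 3 markers of the thick ascending limb and all 6 of the collecting duct had positive differences, with medians of 0.29 and 0.25, and all 3 markers of the distal convoluted tubule had higher signal without overlap of the groups. All 4 measured podocyte markers had positive differences too, with a median of 0.13, and 2 of them were higher without overlap. Among all genes, 9.17% were higher without overlap. In whole tissue a smaller number of cells of a type and less RNA per cell cannot be told apart.

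Chrdl1, which encodes the secreted BMP antagonist chordin-like 1, was the only one of the 43 genes that passed the test. It fell by 1.68 on the log2 scale in db/db kidneys, a factor of 3.2, while the other 8 antagonists and modulators had log2 differences between -0.12 and 0.56. At a Benjamini-Hochberg adjusted p under 0.05 in limma, 0 of the 43 genes were higher and 1 was lower, where 0.482% of all genes were called in either direction and 0.289% were called lower. At an unadjusted p under 0.05, 6 of the 43 were higher and 1 was lower, together 16.3% of the list, where 10.6% of all genes reached this level, 5.92% higher and 4.7% lower. At the thresholds of the methods, an unadjusted p under 0.05 together with a 1.5-fold change, 0 were higher and 1 was lower, where 1.83% of all genes passed, 1.02% higher and 0.807% lower. The groups did not overlap in 10 of the 43 genes, or 23.3%, with 7 higher and 3 lower, where 16.8% of all genes had groups without overlap, 9.17% higher and 7.62% lower. The median log2 difference over the 43 genes was 0.06, where all genes had a median of 0.00. The 95% interval of the difference lay within a change by a factor of 2 in either direction for 41 of the 43 genes, the exceptions being Chrdl1 and Grem1, and within a factor of 1.5 for 29.

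**Figure D1:**
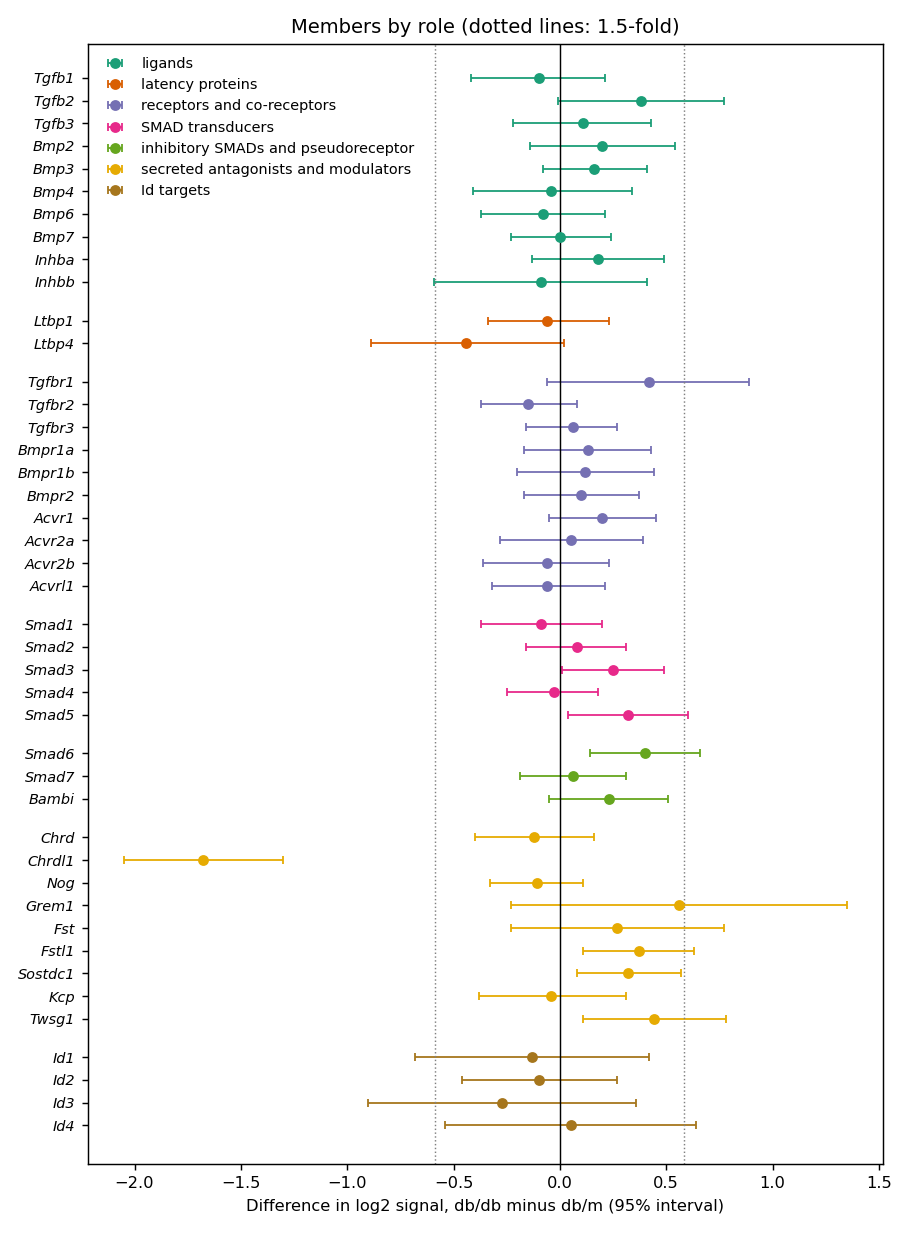
Difference in log2 signal, db/db minus db/m, for the 43 measured genes in 7 groups by role, with points for the estimate and bars for the 95% interval from limma (3 mice per group). Chrdl1 stands alone at -1.68 with an interval from -2.05 to -1.30, and the widest interval belongs to Grem1.

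Chrdl1 lies on the X chromosome. Its signal was 2.73, 2.59 and 2.93 in the db/db mice and 4.72, 4.08 and 4.48 in the db/m mice. The groups were separated by 1.16 between the highest db/db mouse and the lowest db/m mouse, which is wider than the range within either group. The means were 2.75 ± 0.17 in db/db mice and 4.43 ± 0.32 in db/m mice (SD, n = 3 each), and the adjusted p over all 22180 genes was 0.00424 (limma, standard error of the difference 0.17). Chrdl1 had the 14th lowest p of all genes and was 14th in size among the 64 genes called lower. With each array left out in turn it was called 6 times in 6, with log2 differences from -1.85 (without db/m replicate 2) to -1.53 (without db/m replicate 1) and adjusted p from 0.00231 to 0.046. All db/db values lie below 3.37, the median probe-set signal, where array signals flatten towards the background, and how far this compresses the difference was not tested. The call held with trend and robust variances in limma (adjusted p = 0.00168). It is lost in 2 of the alternatives, with an adjusted p of 0.0703 where moderation and adjustment run over all probe sets of the table and of 0.33 with the methods' t-test.

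The change in Chrdl1 can be set beside the markers of the cells that make up the kidney. Proximal tubule markers had log2 differences between -0.09 and 0.35, endothelial markers between -0.16 and 0.22, and stromal and mesangial markers between -0.50 and 0.24. The summed linear signal of the 6 proximal tubule markers ranged from 14503 to 14926 in db/db mice and from 13424 to 14971 in db/m mice, and that of the 7 stromal markers from 785 to 860 in db/db mice and from 784 to 996 in db/m mice. No marker in these lists had a difference as large as that of Chrdl1. The summed signal of the 5 T cell markers, which ranged from 51 to 59 in db/db mice and from 76 to 95 in db/m mice, and that of the 6 macrophage markers, from 323 to 342 in db/db mice and from 384 to 445 in db/m mice, were lower in db/db mice as was Chrdl1, and that of the 4 adipocyte markers ranged from 33 to 36 in db/db mice and from 34 to 92 in db/m mice. Among the db/m mice, replicate 2 had the highest signal in each adipocyte marker. Some of the T cell and adipocyte markers lay below the median probe-set signal, as given above. The part of these cell types in the change of Chrdl1 was not tested.

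None of the other secreted antagonists passed the test. Chrd, the founding member of the chordin family, had signals of 3.82, 4.08 and 3.82 in db/db mice and 3.98, 3.89 and 4.20 in db/m mice. Kcp, kielin/chordin-like protein, which in mouse kidney is known to enhance BMP and to dampen TGF-beta signals, had 5.68, 6.0 and 5.56 in db/db mice and 5.58, 6.02 and 5.75 in db/m mice. In both of these chordin relatives the groups overlapped, with log2 differences of -0.12 (95% interval -0.40 to 0.16) for Chrd and -0.04 (-0.38 to 0.31) for Kcp. Nog encodes noggin, which binds BMP2, BMP4 and BMP7. Its signal was 2.70, 2.70 and 2.73 in db/db mice and 2.89, 2.82 and 2.75 in db/m mice, a difference of -0.11 with both groups below the median probe-set signal. The db/db mice lay just under the db/m mice in Nog, but by less than the standard error of 0.10 between the nearest mice, and the adjusted p was 0.743.

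Of the antagonists, 3 had higher signal in db/db mice with no overlap and an unadjusted p under 0.05, but none passed after adjustment. Over all genes, 9.17% were higher without overlap and 5.92% were higher at this unadjusted level. Sostdc1 encodes USAG-1, a BMP antagonist of the distal tubule that is known to bind BMP7, and it had 9.93, 9.74 and 10 in db/db mice and 9.60, 9.58 and 9.52 in db/m mice (log2 difference 0.32, standard error 0.11, limma adjusted p = 0.306). Twsg1 encodes twisted gastrulation, which forms a complex with chordin and BMPs, and had 9.05, 8.82 and 9.26 in db/db mice and 8.75, 8.70 and 8.36 in db/m mice (0.44, standard error 0.15, adjusted p = 0.317). Fstl1, follistatin-like 1, a secreted glycoprotein that can bind BMP4, had 6.80, 6.69 and 6.97 in db/db mice and 6.47, 6.55 and 6.34 in db/m mice (0.37, standard error 0.12, adjusted p = 0.279). Each of these differences corresponds to a factor between 1.25 and 1.36. Beside Sostdc1, the distal convoluted tubule markers Calb1, Pvalb and Slc12a3 had log2 differences of 0.68, 0.35 and 0.27, and the summed signal of the 3 markers was 3908 to 4153 in db/db mice and 2760 to 3257 in db/m mice. The summed signal of the 6 collecting duct markers was 2445 to 2837 in db/db mice and 2068 to 2442 in db/m mice, and that of the 3 thick ascending limb markers was 4783 to 5659 in db/db mice and 4290 to 4703 in db/m mice. Their part in the Sostdc1 value was not tested.

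**Figure D2:**
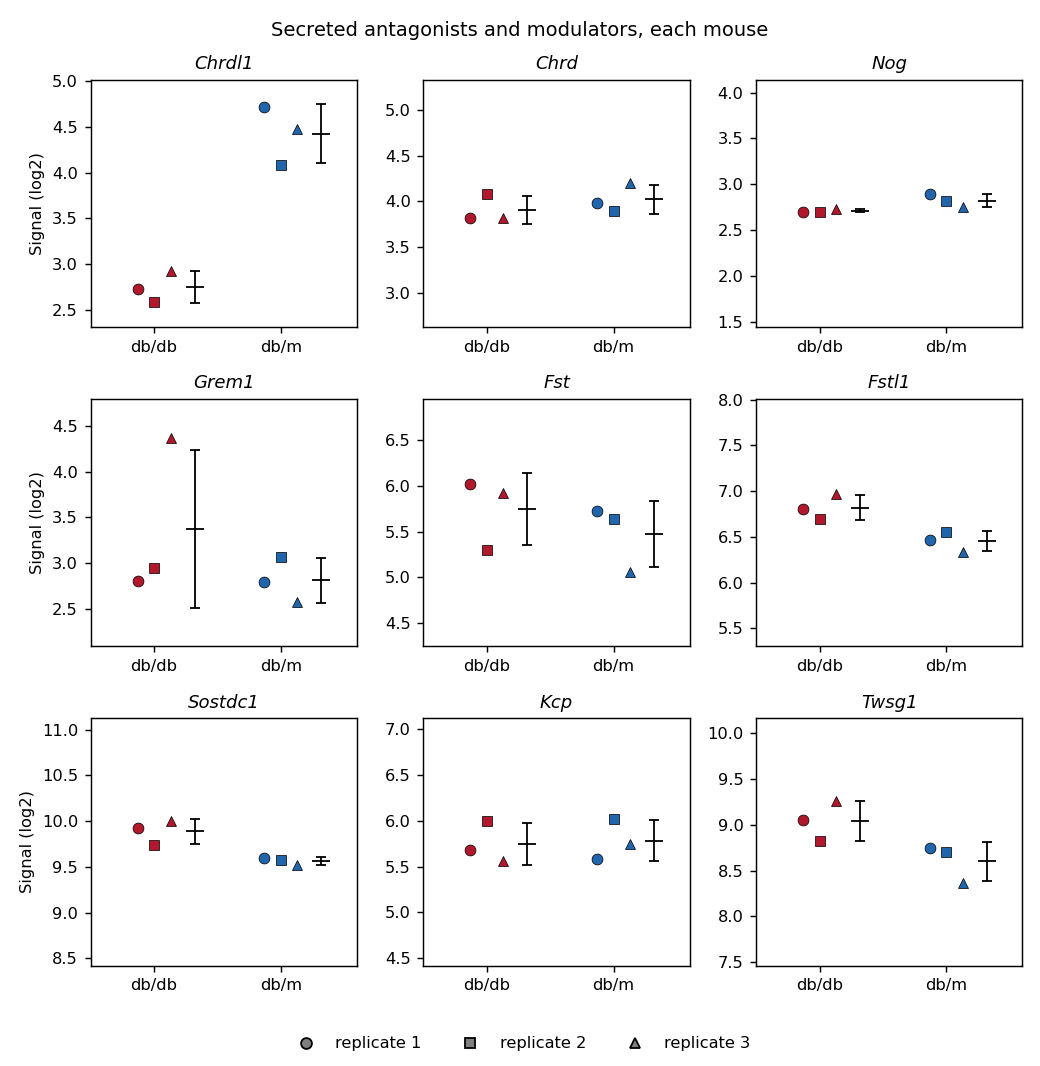
Signal on the log2 scale of the 9 secreted antagonists and modulators in each mouse, with db/db mice in red and db/m mice in blue, symbols for the replicate number, and black bars for the mean and SD of 3 mice. All vertical axes span the same number of log2 units, and only Chrdl1 shows a gap wider than 1 between the groups.

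Fst differed more among the mice of each group than between the groups, and Grem1 did so among the db/db mice only. Grem1 encodes gremlin 1, a BMP antagonist known for its reappearance in diabetic kidney, and its signal was 2.81, 2.95 and 4.37 in db/db mice and 2.79, 3.07 and 2.58 in db/m mice. The db/db mean therefore rests on db/db replicate 3, and the other two db/db mice lay within the range of the db/m mice. In every mouse but db/db replicate 3, Grem1 lay below the median probe-set signal of 3.37. The log2 difference was 0.56 (95% interval -0.23 to 1.35) with all mice and 0.07 without db/db replicate 3. Fst, follistatin, which binds activins, had 6.02, 5.30 and 5.92 in db/db mice and 5.73, 5.64 and 5.06 in db/m mice, with overlapping groups and a difference of 0.27 (95% interval -0.23 to 0.77), which was 0.06 when db/m replicate 3 was left out and 0.49 when db/db replicate 2 was left out.

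Among the 10 measured ligands, 0 had an unadjusted p under 0.05 and in 0 were the groups apart. Of all genes, 10.6% had such a p and 16.8% had groups without overlap. Tgfb1, the isoform most studied in diabetic kidney, had 6.97, 7.25 and 7.29 in db/db mice and 7.27, 7.06 and 7.49 in db/m mice, a difference of -0.10 with a 95% interval from -0.42 to 0.21. Bmp7 had 9.0, 8.98 and 8.99 in db/db mice and 8.91, 8.92 and 9.12 in db/m mice, and its difference of 0.00 had an interval from -0.23 to 0.24. Both intervals lie within a factor of 1.5 in either direction. Bmp6, which in liver signals iron stores to hepcidin, had 8.67, 8.84 and 8.57 in db/db mice and 8.59, 8.78 and 8.95 in db/m mice. The largest difference of a ligand was that of Tgfb2, at 4.83, 4.89 and 4.24 in db/db mice and 4.12, 4.32 and 4.39 in db/m mice. Only db/db replicates 1 and 2 lay above the db/m mice in Tgfb2, and the difference was 0.38 with all mice (limma adjusted p = 0.487) and 0.59 without db/db replicate 3 (adjusted p = 0.188). The remaining ligands, Tgfb3, Bmp2, Bmp3, Bmp4, Inhba and Inhbb, had differences between -0.09 and 0.20, and Inhba, the activin A subunit, lay below the median probe-set signal in both groups.

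Latent TGF-beta binding proteins hold the inactive ligand in the matrix. Ltbp4 had 6.73, 7.06 and 6.29 in db/db mice and 7.11, 6.86 and 7.43 in db/m mice, and Ltbp1 had 5.74, 5.35 and 5.44 in db/db mice and 5.66, 5.50 and 5.53 in db/m mice. The groups overlapped in both genes. For Ltbp4 the log2 difference was -0.44 (95% interval -0.89 to 0.02, adjusted p = 0.497) and -0.23 without db/db replicate 3.

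The 10 receptors and co-receptors included 7 with positive and 3 with negative differences, and 0 had an unadjusted p under 0.05, where 10.6% of all genes reached this level. Bmpr2, the BMP type II receptor, had 9.5, 9.5 and 9.51 in db/db mice and 9.5, 9.54 and 9.17 in db/m mice, and the type I receptor Bmpr1a had 7.75, 7.68 and 7.60 in db/db mice and 7.69, 7.67 and 7.28 in db/m mice. In both, the only mouse apart was db/m replicate 3. The largest difference was that of Tgfbr1, the TGF-beta type I receptor kinase, with 7.0, 6.94 and 7.31 in db/db mice and 6.78, 7.06 and 6.16 in db/m mice. Its log2 difference was 0.42 (adjusted p = 0.535) with all mice and 0.16 without db/m replicate 3. That mouse had the lowest signal of all 6 in 6 of the 10 receptors, and in 14 of the 43 genes (32.6%), where it was lowest in 21% of all genes. The differences of Bmpr2, Bmpr1b and Acvr2a were 0.10, 0.12 and 0.05 with all mice, and -0.02, -0.04 and -0.11 without this mouse. Tgfbr2 and Tgfbr3, the type II receptor and the betaglycan co-receptor, had groups without overlap, at log2 differences of -0.15 and 0.06, and adjusted p of 0.654 and 0.869. The 95% intervals of both included 0, from -0.37 to 0.08 in Tgfbr2 and from -0.16 to 0.27 in Tgfbr3. Groups without overlap were found in 2 of the 10 receptors and co-receptors, or 20%, and in 16.8% of all genes.

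Of the 5 SMAD transducers, Smad3 and Smad5 had higher signal in all db/db mice than in any db/m mouse, and an unadjusted p under 0.05, where 9.17% of all genes were higher without overlap and 5.92% were higher at this level. Smad3, the transducer through which TGF-beta induces most matrix genes, had 7.02, 7.22 and 7.24 in db/db mice and 6.96, 6.83 and 6.93 in db/m mice (log2 difference 0.25, unadjusted p = 0.0437 and adjusted p = 0.453 in limma). Smad5, a BMP transducer, had 6.57, 6.71 and 6.82 in db/db mice and 6.42, 6.53 and 6.19 in db/m mice (0.32, unadjusted p = 0.0279 and adjusted p = 0.389 in limma). With each array left out in turn, the unadjusted p from limma was under 0.05 in 1 fit for Smad3 and in 3 for Smad5. Smad2, Smad4 and Smad1 had differences of 0.08, -0.03 and -0.09. The common partner Smad4 had 8.14, 8.18 and 8.11 in db/db mice and 8.14, 8.17 and 8.22 in db/m mice, and Smad2 had 7.63, 7.76 and 7.78 in db/db mice and 7.64, 7.74 and 7.56 in db/m mice. The groups overlapped in these 3 genes.

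Feedback inhibitors of the pathway are themselves induced by its signals. Smad6, the inhibitory SMAD that acts mainly on BMP receptors, had 5.33, 5.39 and 5.33 in db/db mice and 4.80, 4.91 and 5.13 in db/m mice, with no overlap. Its log2 difference of 0.40 (standard error 0.11) had the lowest unadjusted p among the 43 genes after Chrdl1, and the adjusted p was 0.221 in limma. The difference ran from 0.33 to 0.49 over the fits that leave out 1 array, with an unadjusted p from limma under 0.05 in all 6 and an adjusted p of at least 0.153. Smad7, which acts on TGF-beta receptors as well, had 6.33, 6.46 and 6.49 in db/db mice and 6.31, 6.51 and 6.29 in db/m mice, with overlapping groups and a difference of 0.06. Bambi, a pseudoreceptor that lacks a kinase domain, had 6.25, 6.02 and 5.83 in db/db mice and 5.78, 5.78 and 5.86 in db/m mice, a difference of 0.23 with db/db replicate 3 inside the db/m range.

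**Figure D3:**
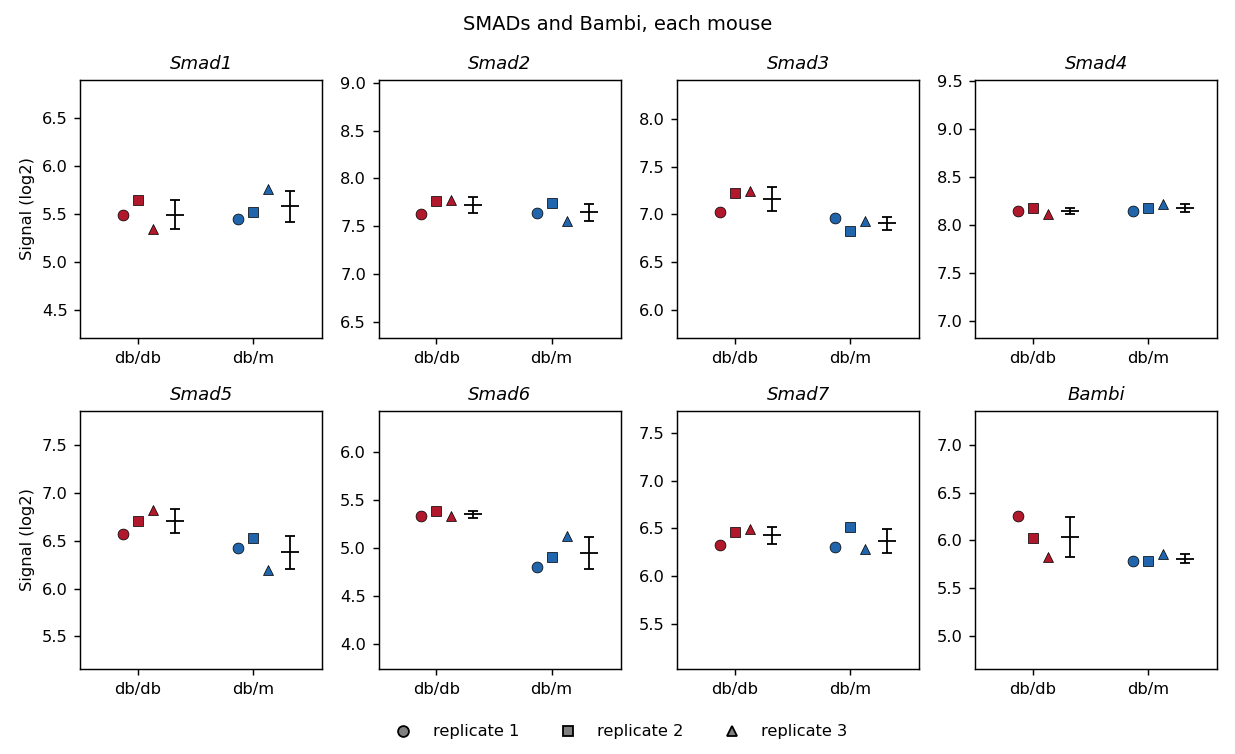
Signal on the log2 scale of the SMAD transducers Smad1 to Smad5, the inhibitory Smad6 and Smad7 and the pseudoreceptor Bambi in each mouse, with db/db mice in red and db/m mice in blue and black bars for the mean and SD of 3 mice. The groups do not overlap in Smad3, Smad5 and Smad6, but the nearest mice lie close, at 7.02 and 6.96 in Smad3 and 6.57 and 6.53 in Smad5. None of the 8 genes passed the adjusted test.

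The Id genes encode helix-loop-helix proteins without a DNA-binding region, and Id1, Id2 and Id3 are direct targets of BMP-activated SMADs. Id1 had 5.81, 6.04 and 4.96 in db/db mice and 5.54, 5.86 and 5.8 in db/m mice. Id2 had 11.05, 10.95 and 10.41 in db/db mice and 10.89, 10.83 and 10.97 in db/m mice. Id3 had 7.03, 7.58 and 6.24 in db/db mice and 7.06, 7.39 and 7.22 in db/m mice. In these genes as in Id4, which had 6.57, 6.98 and 5.73 in db/db mice and 6.34, 6.49 and 6.30 in db/m mice, db/db replicate 3 had the lowest signal of all 6 mice. None of the 4 differed between the groups beyond the spread, with log2 differences from -0.27 to 0.05, adjusted p from 0.779 to 0.966 and the widest 95% interval, that of Id3, from -0.90 to 0.36. Without db/db replicate 3 the differences were 0.19 for Id1, 0.10 for Id2, 0.08 for Id3 and 0.40 for Id4, so that the sign of 3 of them turned on this mouse.

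The mouse db/db replicate 3 differed from the mean of the other two db/db mice by -0.97 in Id1, -0.59 in Id2, -1.07 in Id3 and -1.05 in Id4, and by 1.49 in Grem1. Over all genes, 95% of its differences of this kind lay between -0.46 and 0.49. Smad9, a BMP transducer outside the 43 genes that was chosen after its values were seen, differed in it by -1.45, with 4.99, 5.46 and 3.77 in db/db mice and 4.25, 4.63 and 4.65 in db/m mice. Outside the band of -0.46 to 0.49 were 8 of the 43 genes, the others being Inhbb at 0.76, Tgfb2 at -0.62 and Ltbp4 at -0.60, and 6 of the 61 pathway genes outside the list, which beside Smad9 and Chrdl2 (0.94) were Gdf3, Gdf5, Pmepa1 and Htra3, at 0.50 to 0.67. Smad6 and Smad7 had signals of 5.33 and 6.49 in db/db replicate 3, and differed in it by -0.03 and 0.10 from the mean of the other db/db mice. Pathway activity in this mouse was not tested. Db/db replicate 2 was outside its own 95% band, -0.43 to 0.44, in 7 of the 43 genes. It differed from the mean of the rest of its group by 0.65 in Id1, 0.22 in Id2, 0.95 in Id3 and 0.83 in Id4, and by 1.08 in Smad9. The mean that each of these mice is set against includes the other. These values describe single mice, for which no test can be made.

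**Figure D4:**
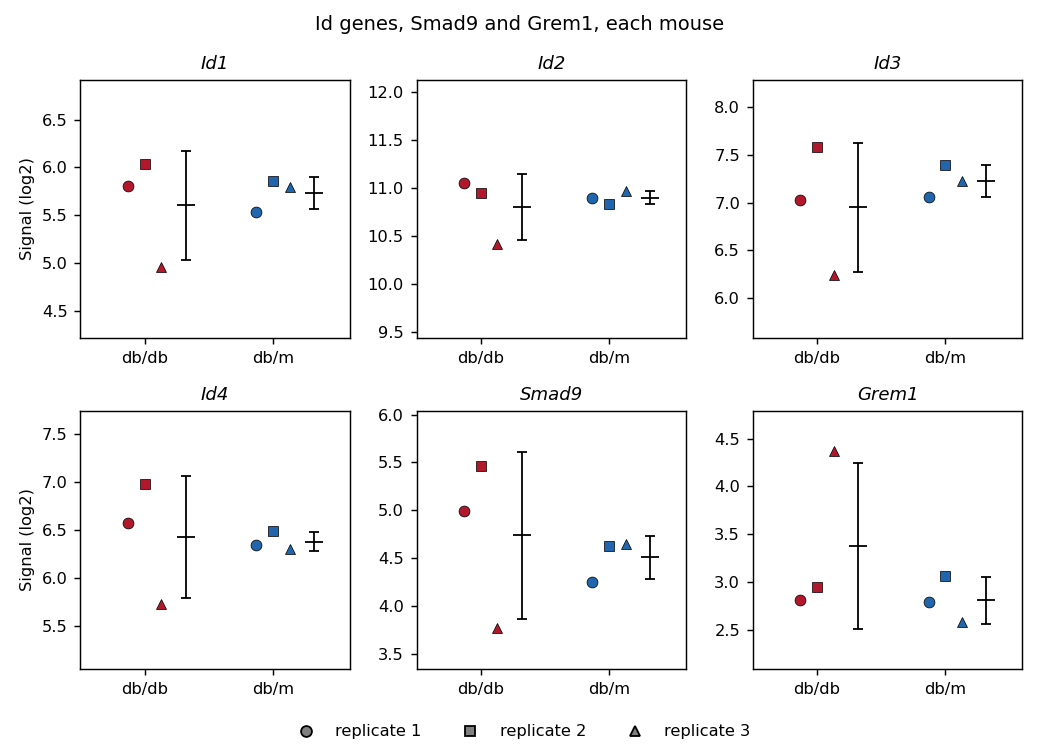
Signal on the log2 scale of Id1 to Id4, Smad9 and Grem1 in each mouse, with db/db mice in red and db/m mice in blue, triangles for replicate 3 and black bars for the mean and SD of 3 mice. The red triangle, db/db replicate 3, is the lowest of 6 mice in Id1 to Id4 and Smad9 and the highest in Grem1.

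Id1 to Id4 were all lowest in db/db replicate 3, but no promoter window was available for Id1. The promoters of Id2, Id3 and Id4 are shown to set their sequences side by side, from 250 bases before to 50 bases after the RefSeq start site of GRCm38.p6, 5′ to 3′ on the strand of the gene. Capitals mark GGCGCC, a GC-rich sequence bound by BMP SMADs, and CAGAC or its reverse complement GTCTG, the core of the CAGA box bound by SMAD3 and SMAD4, and these motifs do not overlap in the windows shown. The windows are chr12:25096043-25096342 on the minus strand for Id2, chr4:136143572-136143871 on the plus strand for Id3 and chr13:48260866-48261165 on the plus strand for Id4.
Id2: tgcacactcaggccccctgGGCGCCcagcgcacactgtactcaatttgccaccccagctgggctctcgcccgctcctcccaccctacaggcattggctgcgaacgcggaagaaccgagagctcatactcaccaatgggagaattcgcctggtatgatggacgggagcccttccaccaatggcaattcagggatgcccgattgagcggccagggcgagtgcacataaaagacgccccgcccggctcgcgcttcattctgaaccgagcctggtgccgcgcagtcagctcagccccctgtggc
Id3: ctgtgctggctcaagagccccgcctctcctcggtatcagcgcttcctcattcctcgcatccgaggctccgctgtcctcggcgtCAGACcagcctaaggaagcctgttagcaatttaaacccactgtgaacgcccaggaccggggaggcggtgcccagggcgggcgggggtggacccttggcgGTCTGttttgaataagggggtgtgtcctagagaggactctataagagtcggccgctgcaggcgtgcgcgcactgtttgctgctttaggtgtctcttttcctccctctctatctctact
Id4: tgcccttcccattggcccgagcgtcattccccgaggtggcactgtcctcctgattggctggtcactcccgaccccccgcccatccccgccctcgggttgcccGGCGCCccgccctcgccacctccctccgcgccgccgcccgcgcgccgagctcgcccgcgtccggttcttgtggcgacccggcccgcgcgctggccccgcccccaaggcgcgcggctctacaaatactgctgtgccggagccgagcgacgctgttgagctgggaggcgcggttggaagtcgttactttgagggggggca
The Id2 and Id4 windows hold GGCGCC once each and no CAGAC, and the Id3 window holds CAGAC on both strands and no GGCGCC. Promoter windows matched 28 of the 43 genes, in 36 windows, of which 30.6% hold GGCGCC and 44.4% hold CAGAC on either strand. Over all 32851 windows of the same length these shares are 11.9% and 49.6%. The windows of Id2, Id3 and Id4 are 63.3%, 60% and 73.3% G and C, against a median of 52.7% over all windows, and the part of base composition in the share with GGCGCC was not tested.

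Among 61 measured pathway genes outside the list, 0 passed the adjusted test in either direction and 7 had an unadjusted p under 0.05 in limma, or 11.5% against 10.6% of all genes. Of these, 5 were higher and 2 lower in db/db mice. The largest difference was that of Chrdl2, the nearest relative of Chrdl1, with 4.23, 4.15 and 5.13 in db/db mice and 3.84, 3.40 and 4.16 in db/m mice. The groups just overlapped, the log2 difference was 0.71 (95% interval 0.10 to 1.31) and the adjusted p was 0.384. It was 0.39 without db/db replicate 3, which was again apart from its group. Acvr1b, an activin type I receptor, had 8.2, 8.35 and 8.21 in db/db mice and 7.97, 7.90 and 7.98 in db/m mice (0.30, adjusted p = 0.306). Sost, the antagonist sclerostin and the closest relative of Sostdc1, had a difference of 0.34 (adjusted p = 0.326), Fstl3, which binds activins, 0.43 (adjusted p = 0.351), and Bmp5 0.42 (adjusted p = 0.339). Ltbp2, a matrix protein that unlike its relatives does not bind latent TGF-beta, had a difference of -0.31 (adjusted p = 0.4). The other lower gene was Tgif1, a corepressor of SMAD2 and SMAD3, with 5.65, 5.54 and 5.53 in db/db mice and 5.75, 5.75 and 6.32 in db/m mice, a difference of -0.36 (adjusted p = 0.462) that was -0.17 without db/m replicate 3. Tgif1 falls outside the rule for naming and was chosen after its values were seen.

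In 22 measured genes that respond to TGF-beta or form matrix, 0 passed the adjusted test and 4 had an unadjusted p under 0.05, or 18.2% against 10.6% of all genes, and the median log2 difference was 0.05. Col3a1, a fibrillar collagen chain, had 4.97, 4.54 and 4.55 in db/db mice and 5.22, 5.28 and 5.05 in db/m mice, a difference of -0.50 (adjusted p = 0.212). In the other direction were Cnn1, a smooth muscle protein, at 0.36 (adjusted p = 0.277), Thbs1, thrombospondin 1, which can activate latent TGF-beta, at 0.32 (adjusted p = 0.337), and Postn, periostin, at 0.29 (adjusted p = 0.382). The differences of Acta2, smooth muscle actin, and Klf10, an early TGF-beta target, were 0.21 and -0.34, with adjusted p of 0.554 and 0.586. The groups did not overlap in 5 of the 22 genes, or 22.7% against 16.8% of all genes. These were Col3a1, Cnn1, Thbs1, Postn and Vim, the intermediate filament vimentin, which was outside the rule for naming and had a difference of 0.16 (adjusted p = 0.664).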

How the data were processed

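Kidney RNA (100 ng per array) of 3 db/db and 3 db/m mice was hybridized to Affymetrix arrays after the mice had been housed for 12 weeks from 10 weeks of age. The authors deposited 1 table of log2 signals per probe set, made by RMA in Affymetrix Expression Console per the labels. Its version, filters and genome build are not given in the sources used here. Genes were named through the annotation that matches the probe-set identifiers, which belongs to a different Affymetrix array from the one given in the methods. Of 41345 probe sets, 23521 name 1 gene, 1820 several and 16004 none, and 23328 of the first matched the RefSeq gene table of GRCm38.p6. Per gene, the probe set naming it alone with the highest mean over the 6 arrays was used, without filter or further normalization.

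Groups were compared as db/db minus db/m with limma 3.58.1 under R 4.3.3 (lmFit, then eBayes, two-sided, prior of 5.29 degrees of freedom), with Benjamini-Hochberg adjustment over 22180 genes. The labels call the arrays biological replicates. The code was tested on simulated data. The genes and lists were chosen with earlier results of these data known. Values of every mouse are given for all antagonists, genes with an unadjusted p under 0.05 and the 2 brightest genes of each role, and outside the list up to 6 genes per list with the lowest p are named, some with the values of every mouse. Alternatives were quantile normalization, median centring, removal of dim probe sets, trend and robust variances, moderation over all probe sets, the methods' t-test, the mean of probe sets, an adjusted p under 0.1, the replicate number as a block, the thresholds of the methods (1.5-fold, unadjusted p under 0.05) and each array left out. These thresholds with the methods' t-test, and all alternatives for the response and matrix genes, were added after the values were seen.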

Additional observations from a re-analysis of the deposited data

How the results depend on the processing

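Chrdl1 kept its sign in all 14 alternatives and its call in 12. Its sign could turn only where signals were normalized again or an array was left out. The other alternatives change the test, the block or the genes kept, or average probe sets, of which Chrdl1 has a single one. The log2 difference of Chrdl1 was -1.68 but did not pass with moderation and adjustment over all probe sets (limma adjusted p = 0.0703). Nor did it pass with the methods' t-test after Benjamini-Hochberg adjustment (adjusted p = 0.33). With these the number of the 43 genes called lower was 0 in place of 1, and the number called higher was 0 in every alternative. At the thresholds of the methods, which use an unadjusted p, 1 of the 43 was lower with the methods' t-test, namely Chrdl1. With 1 array left out, the difference of Chrdl1 ran from -1.85 to -1.53. No other of the 43 genes passed in any of the alternatives that held it, and only 40 were kept where dim probe sets were removed. The sign turned in at least 1 of the 14 alternatives in 18 uncalled genes, in 8 without db/m replicate 3 and in 6 without db/db replicate 3. The median log2 difference ran from 0.01 to 0.10. Over all genes, 43 were called higher and 64 lower. The counts were 0 and 9 with moderation and adjustment over all probe sets, 0 and 2 with the methods' t-test, 96 and 97 at an adjusted p under 0.1, 227 and 179 at the thresholds of the methods with limma, and 159 and 131 at these thresholds with the methods' t-test. They ran from 8 to 26 higher and from 20 to 43 lower with 1 array left out. Of the pathway genes outside the list, 1 was higher at the thresholds of the methods with limma, namely Chrdl2. The cause of these changes was not tested. Replicate numbers are shared by the labels of both groups, but same-numbered mice did not deviate together (correlations of their deviations over genes 0.042, -0.054 and -0.076). With the replicate number as a block, 19 genes were called higher and 42 lower, and Chrdl1 kept its call at -1.68 (adjusted p = 0.00679). With 3 mice per group, the intervals of 14 of the 43 genes, Chrdl1 included, reached beyond a change by a factor of 1.5.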

Other observations

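Of the 10 protein-coding genes nearest to Chrdl1 on the X chromosome in RefSeq, 5 on either side, 0 passed the adjusted test in limma and 3 had an unadjusted p under 0.05, each higher in db/db mice. Over all genes 0.482% passed the adjusted test, and 10.6% had an unadjusted p under 0.05, 5.92% higher and 4.7% lower. The log2 differences of the 10 neighbours ranged from -0.10 to 0.52. The adjacent Rtl9 and Pak3 had differences of -0.07 and 0.09. The most distant from 0 was Acsl4, which activates arachidonic acid, with 7.64, 7.62 and 7.76 in db/db mice and 7.12, 7.38 and 6.94 in db/m mice (log2 difference 0.52, limma adjusted p = 0.154), in the opposite direction to Chrdl1.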
